A study of Homo sapiens with 12 samples.

Results

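The 6 youngest L1 subfamilies of the human genome, L1HS and L1PA2 to L1PA6, were followed in A375 cells by PAR-CLIP with an antibody to the V5 tag, over 12 libraries. Members were taken by name and strand: every annotated element of these subfamilies for which reads were listed on the strand of the element in at least 1 library. That gave 28318 loci out of 1509971 transposable element loci listed on their own strand. In PAR-CLIP, cells take up 4-thiouridine, a photoactivatable nucleoside, UV light crosslinks labelled RNA to protein, and the RNA bound to a tagged protein is then recovered with that protein. A375 is an established human melanoma line. All cells were transiently transfected with a V5-tagged construct 24 h before labelling, crosslinked at 316 nm, and their recovered RNA was depleted of rRNA. The control construct was Clover, a fluorescent protein. The others were full-length ZC3H18 (Z18fl), truncated ZC3H18 (Z18trunc) and truncated ZC3H18 with aromatic residues of the zinc finger mutated (Z18truncZnFmut), with 3 libraries each. Each was carried on a pcDNA3.2 plasmid, and the level of each protein was not checked here. The cell line was not checked against marker genes either, since the tables analysed list repeats. Nothing in the labels says that replicates were separate cultures, so p-values measure the spread between these libraries, which may be technical.

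L1 is a retrotransposon that copies itself through RNA. Its sense transcript encodes an RNA-binding protein and a protein with endonuclease and reverse transcriptase activity, and new copies are often cut short at the 5′ end. L1HS is the human-specific subfamily and holds the copies still able to move, while L1PA2 to L1PA6 are progressively older primate subfamilies. Many old and young copies lie in introns, where reads on the strand of the element and of the gene can come from a pre-mRNA as well as from a transcript of the element itself. ZC3H18 is a zinc finger protein that links the nuclear cap-binding complex to RNA surveillance by the nuclear exosome.

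The listed loci numbered 1159 for L1HS, 3100 for L1PA2, 7146 for L1PA3, 6988 for L1PA4, 6383 for L1PA5 and 3542 for L1PA6. Their median divergence from the subfamily consensus rose in that order, from 0.7% in L1HS to 6.9% in L1PA6, as the naming of the subfamilies by age fixes. Only 5474 loci, 19.3% of the members, were at least 6000 bases long and so near full length. The sense strand of members was rich in A and poor in T, the base that 4-thiouridine replaces, with a median T content of 20.9%.

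The share of counts from uniquely mapping reads was lower in L1HS, the least diverged subfamily, than in L1PA6, the most diverged, with all 4 constructs. SQuIRE, the program the authors used, adds to the uniquely mapping reads of an element an estimated share of each multimapping read, and the sum is called the total count here. In L1HS 39.4% ± 5.3 (SD, n = 3) of the total counts were unique with Clover. With Z18fl, Z18trunc and Z18truncZnFmut the shares were 42.9% ± 1.8, 40.2% ± 2.0 and 37.5% ± 1.0. In L1PA6 the same shares were 70.0% ± 3.4, 73.6% ± 1.3, 70.8% ± 2.3 and 68.8% ± 1.5. L1PA6 was thus placed about as well as transposable elements at large, at 68.2% to 74.0% on average per construct, and L1HS far less well. Over all members the unique share was 51.7% ± 3.1 in Clover and 62.1% ± 1.8 in Z18fl, and the libraries of these groups did not overlap (49.0% to 55.1% against 60.2% to 63.7%). Transposable elements at large were separated too, at 68.2% ± 3.2 (65.4% to 71.6%) against 74.0% ± 1.5 (72.5% to 75.6%). A value at a single L1HS or L1PA2 copy therefore rests more on the estimate than a value at an L1PA6 copy.

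Libraries held 16683132 to 25686948 aligned fragments, with the Clover libraries shallowest, and 41427 to 172803 total counts at members. Z18truncZnFmut replicate 3 stood apart from the rest. It listed 20794 member loci, against 5607 to 11867 in the other 11 libraries, and its reads on the opposite strand of members came to 2831 counts per 1000000 aligned fragments (CPM), against 528 to 961 elsewhere. Where this library changed a main result on Z18truncZnFmut, values by library or without it are given for many but not all results. For a share of member counts in a single library, the 95% Wilson interval spans at most 0.48 percentage points to each side, which covers counting error only.

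RNA of the youngest L1 elements was recovered more with every ZC3H18 construct than with Clover. The summed level of members was 2774, 2422 and 2611 CPM in Clover replicates 1 to 3. It was 4269.9, 4029 and 5464 CPM with Z18fl, 6057, 6158 and 5069 with Z18trunc, and 5277, 4469.8 and 7135 with Z18truncZnFmut. All 9 ZC3H18 libraries lay above all 3 Clover libraries, and the ZC3H18 constructs overlapped one another. The mean rose from 2602 ± 176 (SD, n = 3) in Clover to 4587 ± 768 with Z18fl, 5761 ± 602 with Z18trunc and 5627 ± 1367 with Z18truncZnFmut, which is 1.76, 2.21 and 2.16 times the Clover mean. No test was run on this sum. As single libraries were left out, the log2 ratio of Z18truncZnFmut to Clover ran from 0.91 to 1.25. More RNA in the cell and more RNA bound per molecule cannot be told apart from these libraries alone, and other element classes rose as well: relative to all sense counts of elements the log2 ratio over Clover was smaller, 0.42 with Z18fl, 0.62 with Z18trunc and 0.42 with Z18truncZnFmut, against 0.82, 1.15 and 1.11 per aligned fragment. Members made up 6.58% ± 0.29 of element counts in Clover, 8.78% ± 0.99 with Z18fl, 10.1% ± 1.2 with Z18trunc and 8.84% ± 1.0 with Z18truncZnFmut. Of LINE counts alone they made up 26.5% ± 0.77 in Clover (25.9% to 27.4%) and 26.3% ± 1.3 with Z18fl (25.3% to 27.8%). With Z18trunc the share was 29.9%, 29.4% and 25.1%, and with Z18truncZnFmut 31.0%, 28.3% and 20.2%. Replicates 1 and 2 of both truncated constructs lay above all Clover libraries, and replicate 3 of both lay below. With Z18fl the young subfamilies kept about their place among LINEs.

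All 6 subfamilies lay above Clover in every library of each ZC3H18 construct. Over all subfamilies tested, 60.1% lay wholly above Clover with Z18fl, 54.6% with Z18trunc and 48.6% with Z18truncZnFmut, and 4.48%, 2.49% and 0.434% lay wholly below, so separation upwards was common. Between the ZC3H18 constructs 0 of the 6 were separated, where 13.8% of all subfamilies lay wholly higher and 6.75% wholly lower with Z18trunc than with Z18fl, and 3.66% and 0.94% with Z18truncZnFmut than with Z18trunc. Of the 6, L1PA4 and L1PA5 had the largest ratios to Clover. L1PA4 was at 436, 374.7 and 397 CPM in Clover and at 885, 854 and 1137 with Z18fl. It was at 1216, 1247 and 1019 with Z18trunc and at 948, 819.6 and 1431 with Z18truncZnFmut. The lowest ZC3H18 library lay far above the highest Clover library. L1PA5 was at 404, 366 and 385 CPM in Clover, with group means of 385 ± 19, 943 ± 147, 1159 ± 132 and 1041 ± 285 in the order Clover, Z18fl, Z18trunc and Z18truncZnFmut. L1PA6, the oldest of the 6, moved less, with means of 492 ± 33, 674 ± 111, 876 ± 102 and 892 ± 191 CPM in the same order. L1HS had the lowest sums, 141 ± 6.3, 232 ± 37, 279 ± 23 and 263 ± 43 CPM. L1PA2 had means of 411 ± 27, 648 ± 127, 834 ± 68 and 813 ± 162 CPM, and L1PA3 of 769.8 ± 61, 1131 ± 193, 1453 ± 155 and 1552 ± 367 CPM.

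**Figure D1:**
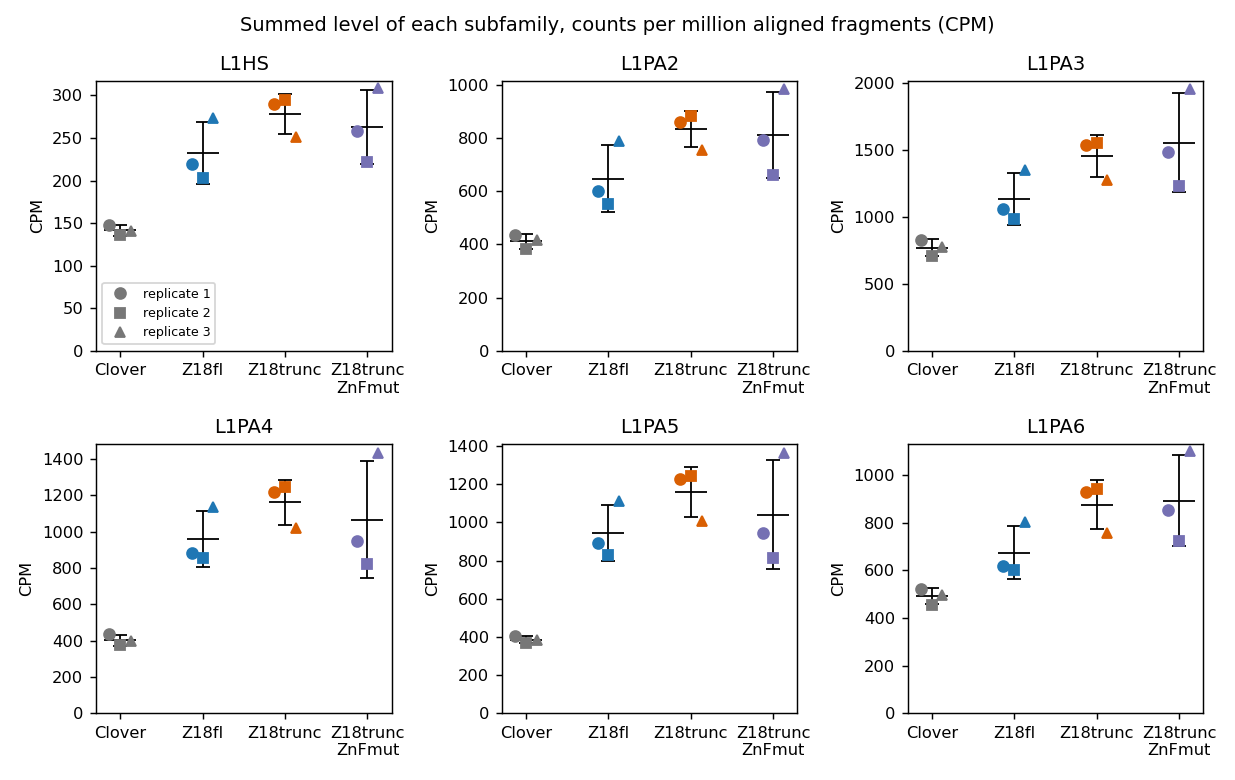
Summed level of each subfamily in CPM (y axis, linear, from 0) for the 4 constructs (x axis). Points are single libraries, with the mark giving the replicate, and bars give the mean ± SD of 3; in all 6 panels every ZC3H18 library lies above the 3 Clover libraries, and L1PA4 and L1PA5 show the widest gap.

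Per length of annotated sequence, L1PA4 stood lowest of the 6 in each of the 12 libraries, and L1PA5 next to it in all 3 Clover libraries. In CPM per megabase of listed loci, the Clover libraries gave 25.8, 22.2 and 23.5 for L1PA4 and 28.7, 26.0 and 27.4 for L1PA5. The other 4 subfamilies gave 39.2 to 52.6, with L1PA6 highest at 52.6, 46.1 and 50.1. With Z18fl, L1PA4 gave 52.4, 50.6 and 67.4 and L1PA5 63.3, 58.9 and 78.8 against 67.8, 62.8 and 84.4 for L1HS. Within each Z18fl library L1PA4 was still below L1HS, while L1PA5 was above L1PA3. With Z18trunc the means ran from 68.8 for L1PA4 to 90.7 for L1PA2. L1PA4 was below L1PA3, its neighbour in that order, in every Z18trunc library, at 72.1, 73.9 and 60.4 against 85.3, 85.9 and 70.8. L1PA3, L1PA5 and L1HS followed in the same order within all 3 libraries, while L1PA6 changed places with L1HS in 1 library and with L1PA2 in another.

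Tested against all other subfamilies with TMM scaling, which sets the average subfamily to no change, L1PA4 and L1PA5 rose most of the 6. With Z18fl, edgeR's quasi-likelihood test called 3 of the 6 subfamilies higher, where 20.1% of all 915 subfamilies tested were called higher and 20.1% lower. L1PA5 rose by a log2 fold change of 0.82 ± 0.08 (SE, adjusted p = 1.25e-06), L1PA4 by 0.78 ± 0.09 (adjusted p = 2.23e-06) and L1HS by 0.24 ± 0.09 (adjusted p = 0.0371). The L1HS call was lost without Clover replicate 1, Z18fl replicate 1 or Z18fl replicate 3 (adjusted p = 0.0539, 0.0519 and 0.172) and with all 12 libraries in a single fit (adjusted p = 0.563). L1PA2, L1PA3 and L1PA6 had log2 fold changes of 0.18, 0.08 and -0.02 and did not pass, though L1PA3 had 0.52 (adjusted p = 8.9e-06) with unique reads only. The value of L1PA6 turned to 0.45 (adjusted p = 0.000855) when library sizes were taken from aligned fragments, which called all 6 subfamilies. That scaling moved the median log2 fold change of all subfamilies to 0.45 with Z18fl, so L1PA6 stayed at the median of all subfamilies under it. Z18fl replicate 3 was the highest of its group for every subfamily, and between 2 and 4 subfamilies were called as single libraries were left out.

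With Z18trunc, 5 of the 6 subfamilies were called higher, where 14.5% of all 925 were called higher and 11.9% lower. L1PA5 rose by 1.12 ± 0.13 and L1PA4 by 1.05 ± 0.13 (adjusted p = 4.03e-06 and 5.91e-06). L1PA2 rose by 0.54 ± 0.12, L1HS by 0.50 ± 0.12 and L1PA3 by 0.44 ± 0.13 (adjusted p = 0.00269, 0.00432 and 0.0174), and L1PA6 had 0.36 ± 0.13 (adjusted p = 0.0559). The L1PA3 call was lost without Clover replicate 1 or 2 or without Z18trunc replicate 1 or 2 (adjusted p = 0.0856, 0.107, 0.0851 and 0.0730). With all 12 libraries in a single fit the calls of L1PA2, L1HS and L1PA3 were lost (adjusted p = 0.196, 0.231 and 0.291). L1PA6 became a call without Z18trunc replicate 3, the lowest of its group (0.56), and with DESeq2 (adjusted p = 0.0372). With Z18truncZnFmut no subfamily of the 6 was called by edgeR or DESeq2, where edgeR called 1.3% of all 921 higher and 0% lower, and 1 of the 6 had an unadjusted p under 0.05 by edgeR and 2 by DESeq2. The values were again largest for L1PA5 at 0.61 ± 0.26 and L1PA4 at 0.57 ± 0.26 (adjusted p = 0.261 and 0.273). Without Z18truncZnFmut replicate 3, the library that stood apart, all 6 were called, with L1PA5 at 0.86 and L1PA4 at 0.80 and a highest adjusted p of 0.000613, for L1PA6 at 0.35. In that fit 98 of all 895 subfamilies were called higher and 51 lower. The 3 comparisons share the Clover libraries.

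Between the ZC3H18 constructs, no subfamily of the 6 was called. Z18trunc against Z18fl gave log2 fold changes of 0.23 for L1HS, 0.33 for L1PA2, 0.33 for L1PA3, 0.24 for L1PA4, 0.26 for L1PA5 and 0.34 for L1PA6, with SEs of 0.12 to 0.14 and adjusted p of 0.178 to 0.367. All 6 values were above 0, and 3 had an unadjusted p under 0.05 by edgeR and 4 by DESeq2, which called none. The background was 1.48% of 948 subfamilies called higher and 2.43% lower. All 6 were called without Z18trunc replicate 3, the lowest of its group (0.36 to 0.50). In that fit 88 of all 957 subfamilies were called higher and 46 lower. Z18truncZnFmut against Z18trunc gave -0.20 for L1PA3 to -0.47 for L1PA5, with SEs of 0.27 to 0.30. None of the 6 had an unadjusted p under 0.05 by either tool, and 0% of all 957 subfamilies were called in either direction. With the replicate number as a block, 3 of the 6 had an unadjusted p under 0.05, all lower, with a median of -0.38 over the 6, and none was called (adjusted p of 0.276 to 0.569). Without Z18truncZnFmut replicate 3 the median moved from -0.33 to -0.07, and the values ran from 0.03 for L1PA3 to -0.26 for L1PA5.

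At single copies, 1176 of the 28318 loci had enough counts to be tested for Z18fl against Clover, and 584 were called higher and 74 lower. Over all 12098 loci tested, 28.3% were called higher and 24.6% lower, so members were called higher in a larger share (49.7%) and lower in a smaller one (6.29%). For Z18trunc, 664 of 1319 were called higher and 20 lower (22.5% and 13.4% of all 13204 loci). For Z18truncZnFmut, 434 of 1024 were called higher and 1 lower (12.3% and 4.83% of all 10152 loci). A copy could pass the filter on low counts through the higher group alone, so these counts and medians describe the copies that passed and not the subfamilies at large. The median log2 fold change of tested members was 0.87 with Z18fl, 1.01 with Z18trunc and 0.88 with Z18truncZnFmut, against 0.01, -0.03 and -0.05 over all loci. Scaling by aligned fragments raised these medians of all loci to 0.37, 0.31 and 0.15, and those of members to 1.24, 1.36 and 1.08. With Z18fl, 35 members were called lower without Z18fl replicate 1 and 40 without replicate 2, in place of 74. With Z18trunc, 13 were called lower in place of 20 without any 1 of the 3 Z18trunc libraries.

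**Figure D2:**
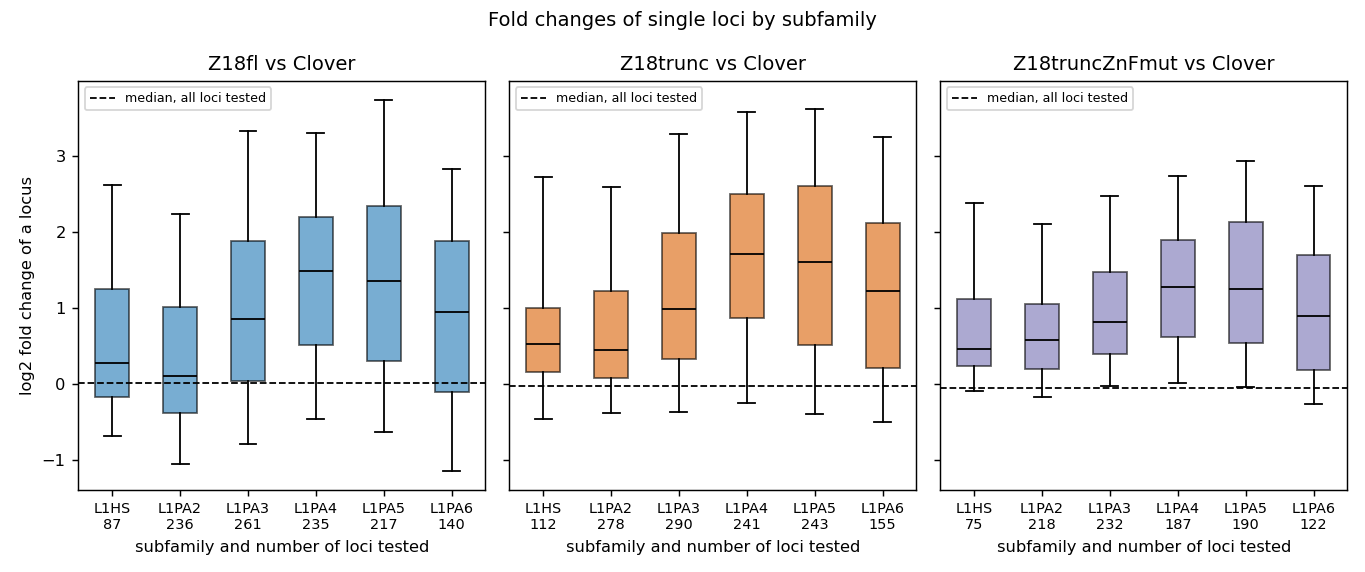
Log2 fold change of single member loci (y axis) by subfamily (x axis, with the number of loci tested) for each ZC3H18 construct against Clover. Boxes give the quartiles and median, whiskers the 5th and 95th percentiles, and the dashed line the median of all loci tested (0.01, -0.03 and -0.05); L1PA4 and L1PA5 have the highest medians in all 3 panels.

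Older members rose at a larger share of their tested copies than the youngest. With Z18fl, 24 of 87 L1HS loci and 60 of 236 L1PA2 loci were called higher, 27.6% and 25.4%, close to the 28.3% of all loci. The share was 50.6% for L1PA3 (132 of 261), 67.2% for L1PA4 (158 of 235), 62.7% for L1PA5 (136 of 217) and 52.9% for L1PA6 (74 of 140). Calls lower were fewer than in the background in both of the youngest subfamilies, at 4.598% of L1HS loci and 10.6% of L1PA2 loci against 24.6% of all loci. With Z18trunc the share called higher was 22.3% for L1HS and 27.3% for L1PA2, against 22.5% of all loci, and reached 72.6% for L1PA4. With Z18truncZnFmut L1HS and L1PA2, at 21.3% and 22.9%, were above the 12.3% of all loci, and L1PA4 reached 57.8%. L1HS was lowest with both truncated constructs and L1PA2 with Z18fl, and L1PA4 was highest with all 3. By divergence of the single copy from its consensus, 25.6% of 168 copies under 2% were called higher with Z18fl, 41.7% of 427 copies at 2 to 3.9%, 67.0% of 306 at 4 to 5.9%, 59.4% of 234 at 6 to 7.9% and 46.3% of 41 at 8% or more. L1PA7 to L1PA17, the next older subfamilies, had 67.5% of 655 loci called higher, and L1MA1 to L1MA4, older still, 69.9% of 153. The subfamilies also differed in how many tested copies lay in introns. Of intronic loci with Z18fl, 46.9% of 32 in L1HS, 54.8% of 84 in L1PA2 and 63.1% of 149 in L1PA3 were called higher. In L1PA4, L1PA5 and L1PA6 it was 74.2% of 155, 70.6% of 153 and 56.8% of 88. The share of unique reads differed between subfamilies too. The part of place and of unique reads in these shares was not tested. In Clover the unique share was 39.4% in L1HS, 50.8% in L1PA2 and 70.0% in L1PA6, and lowest in L1PA3, at 33.5%, or 54.1% without a pair of identical copies described below.

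Copies in introns on the strand of the gene changed most. Introns held 23.5% of member loci and 19.8% of their bases but 47.5%, 47.5% and 47.6% of member counts in the 3 Clover libraries. The share was 56.4% ± 0.13 (SD, n = 3) with Z18fl and 54.7% ± 0.83 with Z18trunc, above Clover in every library. With Z18truncZnFmut it was 51.0%, 52.1% and 42.0%, the last in the library that stood apart. Of all element counts, introns held 41.5% ± 0.52 in Clover, 53.1% ± 0.71 with Z18fl and 50.6% ± 1.2 with Z18trunc, so members moved as other elements did. Of intronic loci tested, 428 of 661 (64.8%) were called higher with Z18fl, 470 of 718 (65.5%) with Z18trunc and 310 of 540 (57.4%) with Z18truncZnFmut. The same shares over all intronic elements were 41.8%, 35.4% and 21.3%. Member loci between genes were called higher at 34.1%, 35.5% and 30.6%, against 28.1%, 23.5% and 15.4% of all loci between genes. Member loci antisense to a gene were called higher at 24.5%, 27.9% and 16.6%, against 18.8%, 15.98% and 8.16% of all antisense loci. Pre-mRNA of the host gene and transcripts of the element cannot be told apart in these counts.

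**Figure D3:**
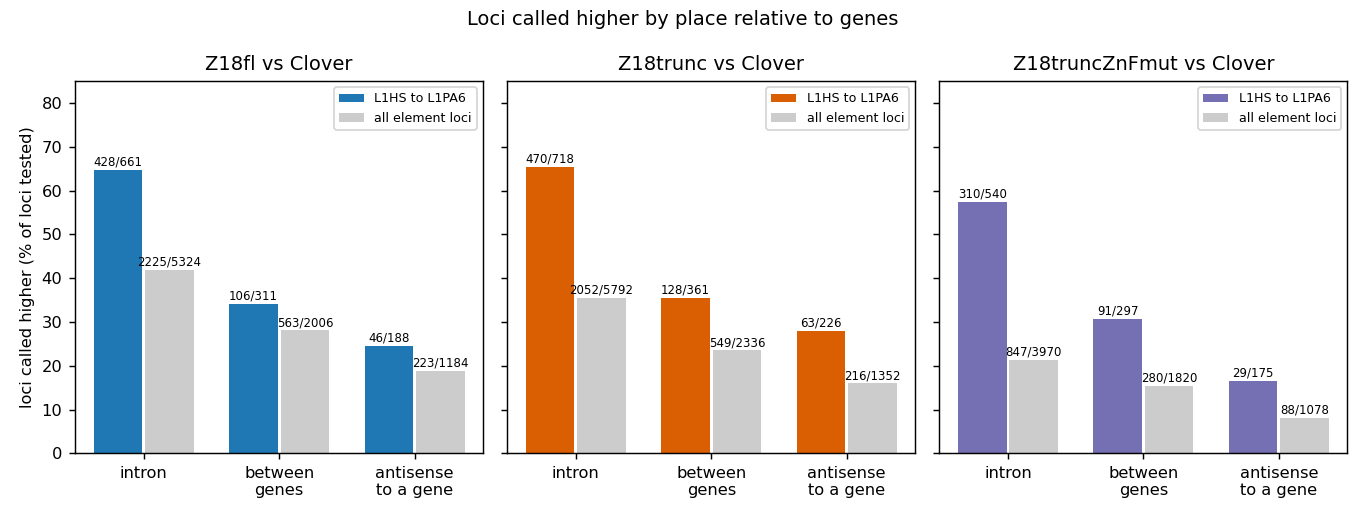
Share of tested loci called higher than Clover (y axis, percent, from 0) for loci in introns, between genes and antisense to a gene (x axis), with coloured bars for L1HS to L1PA6 and grey bars for all element loci. Numbers over the bars give loci called higher over loci tested; in every pair the member bar is the taller, and introns have the tallest bars, up to 65.5% with Z18trunc.

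With Z18fl the gap between introns and loci between genes was widest in L1PA2. There 46 of 84 intronic L1PA2 loci were called higher (54.8%, median log2 fold change 1.07), against 6 of 85 between genes (7.06%, median -0.10). More of the L1PA2 loci between genes, 13 of 85 (15.3%), were called lower, where 28.1% of all loci between genes were called higher and 22.1% lower. The median between genes turned above 0 with Z18trunc (0.22, 11 of 100 called) and with Z18truncZnFmut (0.52, 9 of 83 called). In L1PA4 the difference was small, with 115 of 155 intronic loci (74.2%) and 34 of 54 loci between genes (63.0%) called higher with Z18fl. With Z18fl, L1PA4 copies therefore rose outside genes as well, which L1PA2 copies seldom did.

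Exonic copies were few: with Z18fl 4 of 16 tested were called higher and 1 lower, where 11.5% of all 3584 exonic loci were called higher and 42.4% lower. The 4 were an L1PA2 in BLOC1S6 (61, 53 and 54 total counts with Z18fl against 7, 6 and 5 in Clover), an L1PA6 in ENSG00000285000, an L1PA6 in AP3B1 and an L1PA5 in TAF2, chosen after their values were seen. BLOC1S6 and AP3B1 serve the traffic of lysosome-related organelles, among them melanosomes. The AP3B1 copy (chr5:78173654-78175357, -) had 23, 29 and 30 counts in Clover and 78, 97 and 135 with Z18fl, a log2 fold change of 1.06 ± 0.23 (adjusted p = 0.000867).

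Copies of intermediate length held a larger share of member counts with ZC3H18 than with Clover, a shift that was smaller without the 3 most counted loci, all near full length. Near full-length copies held 64.8% ± 0.74 of member counts in Clover, 57.6% ± 0.92 with Z18fl, 59.3% ± 0.41 with Z18trunc and 60.1% ± 4.2 with Z18truncZnFmut. Copies of 1000 to under 6000 bases held 31.0% ± 0.38, 38.6% ± 0.83, 37.2% ± 0.37 and 35.2% ± 2.5, above Clover in all 9 libraries. Without the 3 most counted loci these shares were 38.9% ± 0.28, 42.3% ± 0.91, 41.4% ± 0.50 and 40.3% ± 1.7. Then the Z18fl and Z18trunc libraries still lay above Clover, but Z18truncZnFmut replicate 1, at 38.7%, was level with the lowest Clover library. With Z18fl 312 of 521 tested copies of that length were called higher (59.9%), against 256 of 619 near full-length copies (41.4%). More of the former lay in introns, and within introns the gap was smaller, at 67.5% of 348 against 62.5% of 285. Between genes it was 49.5% of 109 against 26.0% of 196. Within introns the shares were 67.5% of 369 against 64.9% of 319 with Z18trunc. With Z18truncZnFmut the order there turned, at 55.1% of 263 against 61.9% of 260. The part of length apart from place was not tested. A copy without its 5′ end lacks the internal promoter of L1.

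Reads fell on the sense strand of members more than for other elements. Of member counts on both strands 81.3% ± 1.7 were sense in Clover, 88.0% ± 1.5 with Z18fl and 88.2% ± 3.6 with Z18trunc, against 60.5% ± 0.19, 61.7% ± 0.98 and 62.6% ± 1.7 over all elements. With Z18truncZnFmut the sense share was 89.6%, 84.9% and 71.6%, lowest in the library that stood apart. Antisense reads stood at 599 ± 69 CPM in Clover and 619 ± 16 with Z18fl, groups that overlapped, while the mean sense level was 1.76 times that of Clover. They stood at 625, 703 and 961 CPM with Z18trunc and at 612, 794 and 2831 with Z18truncZnFmut, so antisense reads were above all Clover libraries in 2 libraries of each.

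Few copies carried much of the signal. The most counted locus held 4.89% of member counts on average over the libraries, the 10 most counted 17.5%, the 100 most counted 35.5% and the 1000 most counted 69.7%. The most counted was a near full-length L1PA6 in an intron of SLC38A1, a glutamine transporter gene (chr12:46189949-46196086, -, 6138 bases). It had 4098, 3622 and 4251 total counts in Clover and 3628, 3670 and 5159 with Z18fl. It had 6400, 6608 and 5115 with Z18trunc and 7410, 5589 and 6732 with Z18truncZnFmut. Relative to aligned fragments this was 233 CPM in Clover, 172 with Z18fl, 253 with Z18trunc and 282 with Z18truncZnFmut. The copy fell with Z18fl, by 0.80 on the log2 scale (SE 0.10, adjusted p = 5.74e-06), and did not pass with Z18trunc (-0.23, adjusted p = 0.0573) or Z18truncZnFmut (0.08, adjusted p = 0.744). The Z18fl call was lost without a filter on low counts (adjusted p = 0.57).

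That copy alone held nearly as many L1PA6 counts in Clover as all others together. Without it L1PA6 stood at 277, 245 and 257 CPM in Clover and 461, 444 and 601 with Z18fl, with means of 259.5, 502.0, 623 and 609.7 in the order Clover, Z18fl, Z18trunc and Z18truncZnFmut. In a fit without the 3 most counted loci, of which this copy is the only L1PA6, the L1PA6 value with Z18fl was 0.48 (adjusted p = 0.000405). L1PA3, which held the other 2, had 0.45 (adjusted p = 0.00058) in that fit, so that 5 of the 6 subfamilies were called.

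The next most counted loci were a pair of L1PA3 copies with the same 6137 bases, on the unplaced contigs KI270751v1 (58558 to 64694, +) and GL000214v1 (39519 to 45655, -). Together they stood at 294 ± 27 CPM in Clover, 228 ± 43 with Z18fl, 336 ± 53 with Z18trunc and 413 ± 78 with Z18truncZnFmut. Since the sequences are identical, no read within them can tell them apart, and only 82 reads over the 12 libraries were listed as unique. The split between them nevertheless differed between libraries. The KI270751v1 copy was given 66.8% to 83.8% of the pair's counts in 10 libraries, but 23.1% in Clover replicate 1 (95% Wilson interval 22.0 to 24.2) and 22.2% in Z18truncZnFmut replicate 2 (21.2 to 23.2). The test at single loci nonetheless called the GL000214v1 copy lower with Z18fl (log2 fold change -1.45 ± 0.40, adjusted p = 0.0057), a call lost without Clover replicate 1, without Z18fl replicate 2 and with DESeq2 (adjusted p of up to 0.227). It also called the copy higher in Z18truncZnFmut against Z18trunc (1.41 ± 0.25, adjusted p = 0.00975), a call lost without any 1 of the 3 Z18trunc libraries and with DESeq2 (adjusted p of up to 0.1). Among members of at least 1000 bases, 36 sets of identical copies, 78 loci in all, held 6.75% of member counts.

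**Figure D4:**
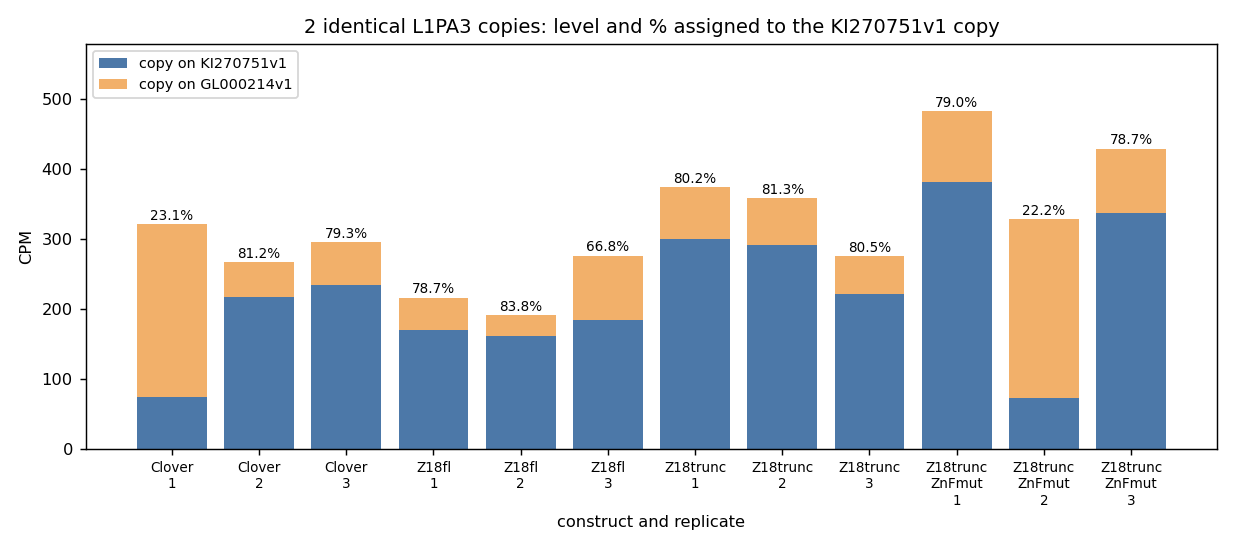
Level in CPM (y axis, from 0) of 2 identical L1PA3 copies in each of the 12 libraries (x axis), stacked by the copy to which SQuIRE assigned the counts. Labels give the percent assigned to the KI270751v1 copy, which drops to 23.1% in Clover replicate 1 and 22.2% in Z18truncZnFmut replicate 2 and is at least 66.8% elsewhere.

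Copies at which the change rested on uniquely mapping reads are described next. Of the loci called higher, 453 with Z18fl, 483 with Z18trunc and 280 with Z18truncZnFmut met further rules. They were also called with unique reads only, and the groups did not overlap in either raw count. The greater depth of the ZC3H18 libraries made the latter rule easier to meet for rises. How many of all element loci met these rules was not counted, so the counts do not set members apart from other elements. The 4 that rose most for each construct, among those with at least 50 mean unique reads, were 12 loci, of which 10 lay in introns. With Z18fl the largest rise was at an L1PA3 of 1252 bases in an intron of IGF2BP3, the gene of an oncofetal RNA-binding protein (chr7:23398030-23399281, -). It had 4, 0 and 4 total counts in Clover, 78, 86 and 112 with Z18fl, 85, 75 and 62 with Z18trunc and 26, 34 and 19 with Z18truncZnFmut. Every ZC3H18 library lay above Clover, and Z18truncZnFmut lay between Clover and the other constructs. The log2 fold change was 4.21 ± 0.42 with Z18fl and 3.92 ± 0.45 with Z18trunc (adjusted p = 3.7e-07 and 1.67e-06), and 4.57 and 4.18 in unique reads.

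The other 3 loci that led with Z18fl behaved alike. An L1PA5 in ATF6, the gene of a transcription factor of the stress response of the endoplasmic reticulum (chr1:161829514-161831957, +), had 6, 0 and 4 counts in Clover and 85, 61 and 115 with Z18fl (log2 fold change 3.81 ± 0.44, adjusted p = 2.02e-06). An L1PA4 between genes on the X chromosome (chrX:25772424-25775961, +) had 5, 3 and 3 counts in Clover and 64, 62 and 104 with Z18fl (3.49 ± 0.36). A near full-length L1PA5 in MAGI2, a scaffold protein gene (chr7:78855268-78861359, -), had 8, 0 and 5 counts in Clover and 77, 80 and 107 with Z18fl (3.47 ± 0.42). The 3 rises lay outside the spread of the libraries in all 3 ZC3H18 groups, which the rule for picking required for Z18fl.

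With Z18trunc the largest rise was at an L1PA5 of 5287 bases in JAM3, the gene of a junctional adhesion molecule (chr11:134102197-134107483, +). It had 5, 2 and 0 counts in Clover, 44, 57 and 75 with Z18fl, 92, 107 and 81 with Z18trunc and 52, 57 and 74 with Z18truncZnFmut. All Z18trunc libraries were the highest here, and the log2 fold change over Clover was 4.44 ± 0.44 with Z18trunc (adjusted p = 3.27e-07), 3.75 ± 0.50 with Z18fl and 4.03 ± 0.51 with Z18truncZnFmut. The difference between Z18trunc and Z18fl did not pass (0.60 ± 0.19, adjusted p = 0.0684). Next came an L1PA4 between genes on an unplaced contig of chromosome 9 (4.16 ± 0.41), an L1PA4 in STAG1, the gene of a cohesin subunit (chr3:136370368-136374273, -; 4.09 ± 0.45), and an L1PA4 in MBD5 (chr2:148380604-148386123, +; 4.09 ± 0.41). The STAG1 copy had 2, 0 and 7 counts in Clover and 115, 85 and 80 with Z18trunc.

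With Z18truncZnFmut the loci that led were near full-length or close to it and rose with the other constructs too. An L1PA4 in TAF1B, the gene of a subunit of the RNA polymerase I initiation factor SL1 (chr2:9860963-9867093, +, 6131 bases), had 7, 1 and 5 counts in Clover, 84, 64 and 115 with Z18fl, 132, 158 and 107 with Z18trunc and 98, 59 and 83 with Z18truncZnFmut. Its log2 fold change was 3.52 ± 0.40 with Z18truncZnFmut (adjusted p = 1e-06) and 4.08 ± 0.35 with Z18trunc. An L1PA5 in TIGAR, which encodes a phosphatase of sugar metabolism (chr12:4341375-4346760, +), had 20, 17 and 25 counts in Clover and 360, 208 and 286 with Z18truncZnFmut (3.12 ± 0.22). An L1PA2 in KYNU, the gene of kynureninase (chr2:143006043-143012076, +), rose by 3.09 ± 0.29 from 12, 7 and 10 counts to 176, 88 and 131. An L1PA5 in VPS53, the gene of a subunit of the GARP tethering complex (chr17:634397-640538, -), rose by 2.93 ± 0.22 from 21, 26 and 17 counts to 291, 192 and 288. The KYNU copy, 1.9% diverged, shows a rise at a young copy. Of the 12 loci 5 were L1PA4, 5 L1PA5, 1 L1PA3 and 1 L1PA2.

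**Figure D5:**
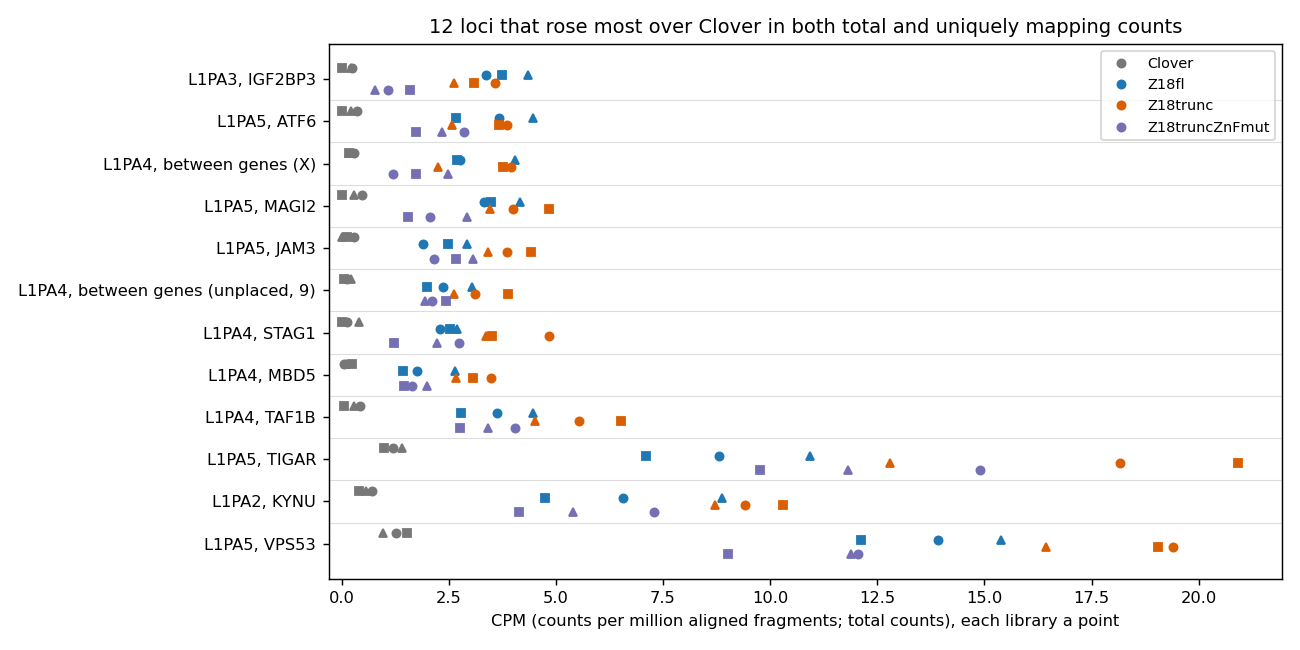
Level in CPM (x axis, linear) of the 12 member loci that rose most over Clover in total and in unique counts, named by subfamily and host gene (y axis). Each point is a library, with colour for the construct and the mark for the replicate. At all 12 loci the Clover points lie near 0 and below every ZC3H18 point of the same locus. For the construct by which a locus was picked, the rule for picking required this separation.

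By the stricter rule that at least 90% of the reads with any alignment to the copy were assigned to it, 2 loci were named, both with Z18fl. An L1PA5 in RYK, a Wnt receptor gene (chr3:134100583-134102200, -, 8.5% diverged), had 2, 7 and 8 counts in Clover, 30, 34 and 42 with Z18fl, 39, 48 and 42 with Z18trunc and 51, 21 and 24 with Z18truncZnFmut. It rose with all 3 constructs, by 1.77 ± 0.42, 2.08 ± 0.41 and 1.81 ± 0.49 (adjusted p = 0.00171, 0.000498 and 0.0102), the last call lost without Clover replicate 1 (adjusted p of up to 0.0847). An L1PA6 of 584 bases in the lncRNA gene ENSG00000287392 (chr4:92210864-92211447, +) had 6, 8 and 5 counts in Clover and 25, 17 and 32 with Z18fl (1.09 ± 0.42, adjusted p = 0.037). That call was lost under 7 of 13 alternatives, DESeq2 among them.

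Of the near full-length copies with the most unique reads, the SLC38A1 copy was called lower with Z18fl, as given above. The others lay in ZFPM2-AS1, OTUD7B, a deubiquitinase gene, and ATP6V1H, the gene of a subunit of the vacuolar proton pump. They were an L1PA3, an L1PA5 and an L1PA4, in that order. With Z18fl their log2 fold changes were 0.05, -0.15 and -0.24, none of which passed (adjusted p = 0.76, 0.327 and 0.149), and with library sizes from aligned fragments the first turned to a call (adjusted p = 0.0119) and the OTUD7B and ATP6V1H values turned above 0 (0.22 and 0.13). The ATP6V1H copy was called lower without Clover replicate 2 (adjusted p = 0.0253). With Z18trunc they were 0.53 (adjusted p = 0.00141), 0.41 (adjusted p = 0.0113, lost without Clover replicate 1 or 2) and 0.22 (adjusted p = 0.208). A near full-length L1HS copy in an intron of RB1 (chr13:48465556-48471566, +) had 140, 111 and 133 counts in Clover and 118, 113 and 165 with Z18fl. Counts overlapped between these groups while the depth did not, and the copy was called lower with Z18fl (fell by 0.81 on the log2 scale, SE 0.16, adjusted p = 0.000368), a call lost without a filter on low counts (adjusted p = 0.57). It did not pass with Z18trunc (-0.26, adjusted p = 0.218) or Z18truncZnFmut (0.03, adjusted p = 0.941). Some other near full-length copies rose with Z18fl. The L1PA2 in RFX7 rose by 1.16 ± 0.14, from 94, 97 and 105 counts to 351, 344 and 506 (adjusted p = 3.56e-06). The L1PA4 in ZNF780B rose by 1.99 ± 0.16, from 125, 72 and 103 to 646, 595 and 914 (adjusted p = 5.08e-08).

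Falls against Clover were few. With unique reads only, 41 of 825 members tested were called lower with Z18fl, where 2116 of all 8643 loci were. Of the 74 members called lower with Z18fl, 4 were also called lower with unique reads only and did not overlap in raw counts. The lower depth of the Clover libraries made that rule harder to meet for falls. How many of all element loci met it was not counted either. These 4 are named here after their values were seen. An L1PA4 of 772 bases between genes (chr22:34397944-34398715, +) had 49, 35 and 36 counts in Clover, 1, 7 and 16 with Z18fl, 12, 16 and 12 with Z18trunc and 49, 49 and 101 with Z18truncZnFmut. It was low with both constructs that have an intact zinc finger, with log2 fold changes of -3.16 ± 0.43 and -2.40 ± 0.30 against Clover (adjusted p = 1.13e-05 and 5.9e-06), and higher by 2.52 ± 0.33 in Z18truncZnFmut than in Z18trunc (adjusted p = 0.000472). The others were an L1HS antisense to PDE11A (fell by 1.69), an L1PA3 antisense to the pseudogene ENSG00000204790 (fell by 1.28) and an L1PA6 antisense to BRWD3 (fell by 1.70). The 1 member called lower with Z18truncZnFmut was an L1HS of 5792 bases in SMG1, the gene of a kinase of nonsense-mediated decay (chr16:18821267-18827058, -). It had 173, 172 and 150 counts in Clover and 194, 166 and 160 with Z18truncZnFmut, which overlap, and its log2 fold change was -0.57 ± 0.17 (adjusted p = 0.0215). No member was called lower with Z18truncZnFmut without Clover replicate 1 or 2 or without Z18truncZnFmut replicate 1 or 3.

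Truncation was compared by setting Z18trunc against Z18fl. Of 1822 members tested, 60 were called higher and 12 lower, where 2.62% of all 19413 loci were called higher and 3.13% lower, so 3.29% and 0.659% of members stood on either side of the background. The count of 60 moved with single libraries: leaving out Z18fl replicate 1 or 2 gave 12 or 10, leaving out Z18trunc replicate 1 or 2 gave 14, and leaving out the third library of either construct gave 84. The largest of the higher loci in unique reads was an L1PA3 in the lncRNA gene ENSG00000289130 (chr3:24280190-24285593, +), with 21, 22 and 36 counts with Z18fl and 78, 83 and 69 with Z18trunc (1.47 ± 0.22, adjusted p = 0.000417). It had 19, 7 and 13 counts in Clover and 48, 54 and 60 with Z18truncZnFmut, so both truncated proteins were high. An L1PA2 between genes (chr11:7658149-7664171, -) had 71, 82 and 112 counts with Z18fl and 179, 206 and 147 with Z18trunc (0.93 ± 0.17, adjusted p = 0.00209). The Clover libraries gave 112, 151 and 130 there, and the copy was lower with Z18fl than with Clover (-1.42 ± 0.18, adjusted p = 4.67e-06). Lower with Z18trunc than with Z18fl were an L1PA6 in DLC1 (22, 39 and 27 against 80, 45 and 55 counts; -1.11 ± 0.27, adjusted p = 0.0159) and an L1PA4 between genes (chr3:102008205-102014355, +; 62, 85 and 51 against 99, 99 and 138 counts; -0.83 ± 0.19, adjusted p = 0.0121). Both calls were lost without Z18trunc replicate 1. The L1PA5 in TIGAR was also higher with Z18trunc than with Z18fl (0.87 ± 0.16, adjusted p = 0.00187).

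The zinc finger was addressed by Z18truncZnFmut against Z18trunc. Of 1748 members tested, 11 were called higher and 7 lower in the main fit, which was unpaired. Of all 16833 loci, 0.368% were called higher and 0.351% lower. With the replicate number as a block, which these 2 constructs bear out, 7 were called higher and 0 lower. Of all loci, 22 were called higher and 17 lower with the block. Scaling by aligned fragments turned the split to 10 higher and 31 lower. All loci turned the same way under it, with 30 higher and 184 lower. The median log2 fold change of tested members was -0.05, or -0.22 with that scaling and -0.20 without Z18truncZnFmut replicate 3, which left 7 higher and 5 lower. Over all loci the median was 0.013, or -0.16 with that scaling and 0.003 without that library, which left 37 higher and 57 lower. Without Z18trunc replicate 1 or 2, 4 were called higher and 0 lower, without Z18trunc replicate 3, 6 and 2, and without Z18truncZnFmut replicate 1, 27 and 5. Of all loci, the same fits called 12 and 4 or 15 and 11, then 14 and 11, and then 108 and 64. By place, intronic members had a median of -0.21 and members between genes 0.12. By subfamily it ran from 0.10 for L1PA2 to -0.22 for L1PA4. Only 1 locus met the rule for higher loci, the L1PA6 antisense to BRWD3 (chrX:80766638-80771565, +), with 36, 48 and 24 counts with Z18trunc and 120, 63 and 130 with Z18truncZnFmut (1.74 ± 0.25, adjusted p = 0.0014). It had 28, 37 and 35 counts in Clover and 20, 14 and 21 with Z18fl, so it was highest with the mutant and lowest with the full-length protein. Lower with the mutant were the L1PA3 in IGF2BP3 (fell by 1.26, SE 0.27, adjusted p = 0.0318) and a near full-length L1PA6 in WDR70 (chr5:37688714-37694840, +), which had 167, 215 and 144 counts with Z18trunc and 86, 68 and 83 with Z18truncZnFmut (fell by 0.93, SE 0.19, adjusted p = 0.022). Both of these calls were lost with the replicate block and without Z18trunc replicate 1 or 2. The WDR70 copy had 14, 16 and 6 counts in Clover, so the mutant was still far above the control.

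Base composition differed little between copies that rose and those that did not. With Z18fl the median AT content was 58.9% in the 584 loci called higher, 58.1% in the 74 called lower and 58.0% in the 518 not called, with quartiles of 57.9% to 60.7% in the first and 57.7% to 59.3% in the last. With Z18trunc the medians were 58.6% for higher loci and 57.9% for loci not called, and with Z18truncZnFmut 58.4% and 58.0%. Loci called higher were in introns in 73.3% of cases with Z18fl, 70.8% with Z18trunc and 71.4% with Z18truncZnFmut, against 40.2%, 37.5% and 38.9% of loci not called.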

How the data were processed

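The authors trimmed the reads with cutadapt 4.6, per the labels, and ran SQuIRE, which mapped them to hg38 and assigned them to annotated repeats by strand, 1 library per file; the SQuIRE version is not given in the sources used here. The deposited uniquely mapping reads are counts, and the deposited totals are expected counts found by expectation maximization. The score in the deposited files gives, in percent, how much of the reads with any alignment to a copy its total count makes up. Other deposited columns give aligned fragments as a count and divergence from the consensus, another score of the annotation. The files' FPKM values were not used.

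Totals were rounded. LTR, LINE, SINE, DNA, RC and Retroposon loci, and sums by subfamily, were tested with edgeR 4.0.16 in R 4.3.3 (quasi-likelihood, TMM, filterByExpr with a minimum count of 10 and total of 15) on the 6 libraries compared, with Benjamini-Hochberg adjustment over all features; adjusted p under 0.05 was called. CPM was computed from aligned fragments. A locus was exonic with 50% of its length in exons of GENCODE 44 on its strand, and otherwise placed by its middle. The fits were tested on simulated data. Alternatives were DESeq2 1.42.0, aligned fragments as library size, no filter, both strands, unique reads, all 12 libraries in a single fit, a replicate block, each library left out and, chosen after seeing the data, sums without the 3 most counted loci.

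Members and lists were chosen with earlier results of these data known. The 6 subfamilies, the 3 most counted loci, the 4 near full-length loci with the most unique reads and, per comparison, called loci without overlap, with at least 20 mean counts and a score of at least 90 were to be named (4 higher and 2 lower against Clover, otherwise 2 of each). As the score left 2 loci, loci called in total and unique reads with at least 50 unique reads were added after values were seen. Overlap was judged on raw counts. Replicate numbers come from the sample titles. Deviations of same-numbered Z18trunc and Z18truncZnFmut libraries from their group means correlated at 0.65, 0.35 and 0.70 over 527 subfamilies. The main fit of these constructs was nevertheless unpaired, and the fit with the replicate block is given beside it. In the other 4 comparisons at least 1 pair was below 0.1. Sequences of member copies are not reported here.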

Additional observations from a re-analysis of the deposited data

How the results depend on the processing

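Counts of members called higher than Clover stayed within 1.5 times under every alternative, at 476 to 691 with Z18fl, 529 to 774 with Z18trunc and 342 to 426 with Z18truncZnFmut as single libraries were left out. Other counts moved; the causes were not tested. With DESeq2, members called lower numbered 44 with Z18fl and 12 with Z18trunc, Z18trunc against Z18fl gave 38 higher and 5 lower, and Z18truncZnFmut against Z18trunc 22 lower. With library sizes from aligned fragments, 32, 7 and 0 members were called lower than Clover (Z18fl, Z18trunc, Z18truncZnFmut), 5 lower in Z18trunc than Z18fl and 31 lower in Z18truncZnFmut than Z18trunc, and 6 subfamilies were called with Z18fl and 5 with Z18truncZnFmut. With no filter, 24, 8 and 0 were lower than Clover, 6 higher and 4 lower in Z18trunc than Z18fl, and 7 higher in Z18truncZnFmut than Z18trunc. With reads on either strand, 39 were lower with Z18trunc and 25 higher in Z18truncZnFmut than Z18trunc. With unique reads only, 41 were lower with Z18fl, 8 with Z18trunc and 15 in Z18truncZnFmut than Z18trunc, and the log2 ratio of summed levels with Z18fl was 1.07. With all 12 libraries in a single fit, 42 and 2 were lower than Clover with Z18trunc and Z18truncZnFmut, 15 higher and 3 lower in Z18trunc than Z18fl, and 2 subfamilies were called with Z18trunc. Per element count, the log2 ratios of summed levels were 0.42 with Z18fl, 0.62 with Z18trunc and 0.42 with Z18truncZnFmut.

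With the replicate number as a block, Z18trunc against Z18fl gave 29 higher loci, and Z18truncZnFmut against Z18trunc 7 higher and 0 lower; the block moved no other count by over 1.5 times. Leaving out single libraries gave 35 to 94 members lower with Z18fl, 13 to 24 with Z18trunc and 0 to 1 with Z18truncZnFmut. It gave 10 to 84 higher and 4 to 10 lower in Z18trunc than Z18fl, and 4 to 27 higher and 0 to 5 lower in Z18truncZnFmut than Z18trunc. Subfamilies called were 2 to 4 with Z18fl, 4 to 6 with Z18trunc, 0 to 6 with Z18truncZnFmut and 0 to 6 for Z18trunc against Z18fl. Without the 3 most counted loci, 5 subfamilies were called with Z18fl. L1PA6 with Z18fl turned from -0.02 to 0.45 with aligned fragments and to 0.48 without those loci. Of 1130 alternative values for 87 called results at named loci and subfamilies, 1045 kept their call, 85 lost it and 0 changed direction; of 1193 for 91 results not called, 62 became calls in the same direction and 2 in the other, both for L1PA6 with Z18fl, as given above. Depth limits most members: the loci with a mean of at least 10 counts, 1485 in all, held 75.5% of member counts.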
